A study of Caenorhabditis elegans with 2 samples.

Results

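A class of strong HMG-4 sites lay inside the bodies of protein-coding genes, away from the annotated starts of the gene types named next. Of the 1545 autosomal peaks on the thresholded list, 263 (17.0%, exact 95% interval 15.2% to 19.0%) had a summit inside a protein-coding gene and more than 500 bp from the 5′ end of every protein-coding, tRNA, snoRNA, snRNA, miRNA, rRNA, ncRNA and lincRNA gene. These are called gene-body peaks here, and the gene that holds a summit is called its host. The thresholded list as a whole, sex chromosome included, held 2137 peaks. The other 1282 autosomal peaks comprised 502 at protein-coding gene starts, 340 between genes, 245 at small RNA gene starts and 195 at starts of other non-coding RNA genes. Gene models were those of Ensembl on WBcel235, the same assembly as the ce11 build of the peak lists.

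The peaks came from chromatin immunoprecipitation and sequencing of Caenorhabditis elegans early embryos collected by egg bleaching at 0 hours, both sexes mixed. There was 1 group of 2 biological replicates and no other condition. All embryos were of strain OP660, which carries the unc-119(tm4063) mutation and the wgIs660 transgene, an hmg-4 construct with TY1, EGFP and 3xFLAG tags together with a rescuing unc-119(+) copy. The antibody recognised GFP, so that the transgene's C-terminally tagged protein was recovered from whole embryos and the cell type of a site is not known. A peak's strength is the pooled signal value, the enrichment measure of the authors' caller over a control alignment that both replicates shared, and each replicate's own list gives a separate value. The thresholded list was the authors' selection by irreproducible discovery rate (IDR), a measure of whether peaks keep their rank between replicates. Every value is for 1 pooled list or 1 replicate, and peaks are not replicates, so no test between conditions could be made.

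HMG-4 is one of the worm proteins related to SSRP1, the HMG-box subunit of the histone chaperone FACT. FACT loosens and rebuilds nucleosomes ahead of and behind moving polymerases, and is known for work along transcribed genes and at replication forks. Worm genes often have several promoters, and long introns can hold enhancers and starts of shorter transcripts.

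The sequence at the strongest gene-body peaks varied. The examples below were picked from strong peaks to show what each feature looks like, so they say nothing of how common it is; the counts over all the peaks come later. At the strongest peak, in the last intron of M01F1.8, the summit fell in an inverted repeat, whose arms of 11 bases are in capitals with a spacer of 16 bases between them (ce11, plus strand, chrIII:3499981-3500078).
M01F1.8: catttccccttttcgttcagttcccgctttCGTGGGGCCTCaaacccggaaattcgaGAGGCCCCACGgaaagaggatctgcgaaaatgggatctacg
The next strongest, in intron 5 of unc-104, lay on an annotated tRNA pseudogene, C52E12.t1, and held the B box of the tRNA internal promoter, in capitals (plus strand, chrII:7001622-7001741).
unc-104: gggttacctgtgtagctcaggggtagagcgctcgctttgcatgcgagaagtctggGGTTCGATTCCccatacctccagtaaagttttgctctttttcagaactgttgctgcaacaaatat
A GA repeat, searched as 5 or more GA units in a row on both strands, was a recurring feature of intronic summits, and is in capitals in the next 3 sequences. They come from beside the strongest of 3 peaks in intron 4 of miz-1, on the side of a neighbouring summit 200 bp away (minus strand, chrIV:10821914-10822013), from intron 1 of cam-1 (plus strand, chrII:9308834-9308933) and from Y62F5A.9 (minus strand, chrII:11535540-11535639). The marked miz-1 repeat lies just outside the interval of the strongest peak and inside that of the neighbouring peak (257.9 pooled).
miz-1, strongest peak: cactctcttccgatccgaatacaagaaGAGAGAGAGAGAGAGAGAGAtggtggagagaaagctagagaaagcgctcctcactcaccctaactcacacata
cam-1: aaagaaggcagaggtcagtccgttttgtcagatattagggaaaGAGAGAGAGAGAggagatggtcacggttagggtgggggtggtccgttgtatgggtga
Y62F5A.9: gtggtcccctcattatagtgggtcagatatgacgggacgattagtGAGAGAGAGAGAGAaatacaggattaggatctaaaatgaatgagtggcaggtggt
A different run of letters, GAGACGCAG, recurred in others and is in capitals in the last 5. These lie at the second strongest miz-1 peak (plus strand, chrIV:10817148-10817247), mdt-26 (minus strand, chrII:5661884-5661983), lit-1 (minus strand, chrIII:13717660-13717759), larp-1 (plus strand, chrIII:5014046-5014145) and zfp-1 (minus strand, chrIII:8802057-8802156).
miz-1, second peak: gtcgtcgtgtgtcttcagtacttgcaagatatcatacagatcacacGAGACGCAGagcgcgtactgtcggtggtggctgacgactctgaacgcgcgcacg
mdt-26: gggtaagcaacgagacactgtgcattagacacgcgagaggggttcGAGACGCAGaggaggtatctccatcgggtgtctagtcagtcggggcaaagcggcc
lit-1: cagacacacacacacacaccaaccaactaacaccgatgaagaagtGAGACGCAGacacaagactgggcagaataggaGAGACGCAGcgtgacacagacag
larp-1: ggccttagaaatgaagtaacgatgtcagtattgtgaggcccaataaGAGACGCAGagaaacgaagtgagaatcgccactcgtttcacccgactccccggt
zfp-1: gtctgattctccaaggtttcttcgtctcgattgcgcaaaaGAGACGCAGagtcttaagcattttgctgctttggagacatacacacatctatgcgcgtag

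Gene-body peaks had the lowest median strength of the position classes. Their pooled signal value had a median of 153.9 (quartiles 139.9 and 194.5, range 129.97 to 478.5), against a median of 175.3 in the other 1282 autosomal peaks. By class, the medians of those others were 165.7 at protein-coding gene starts, 166.6 between genes, 176.8 at other non-coding RNA gene starts and 237.3 at small RNA gene starts. Values above 200 occurred in 60 gene-body peaks (22.8%), against 36.6% of the other autosomal peaks. The highest gene-body value, 478.5, compares with 1189 at the strongest small RNA gene start, and the quartile ranges of the classes overlapped. Among the 1068 strongest peaks of the list the difference in medians was -7.37, with an interval (order statistics of the gene-body values alone) of -29.8 to 3.85 that includes 0. The lower bound of about 130 is where the thresholded list ends, so it was set by the authors' threshold. The −log10 q-values of the gene-body peaks ran from 2.48 to 2.95.

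**Figure D1:**
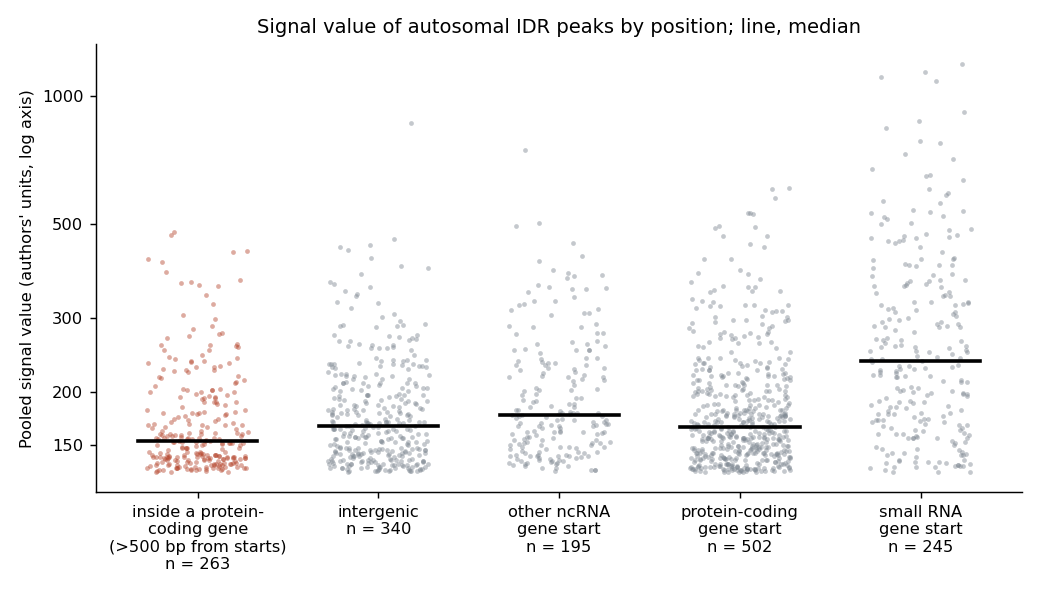
Pooled signal value of each autosomal peak on the thresholded list (log axis, authors' units), by position of the summit, with 1 point per peak and a line at the class median. Gene-body peaks, at the left, have a median of 153.9 and reach 478.5, and peaks at small RNA gene starts, at the right, have a median of 237.3 and reach 1189.

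Both replicates carried a peak at nearly every gene-body site. An overlapping peak stood in both replicate lists for 257 of the 263 (97.7%, exact interval 95.1% to 99.2%), against 1179 of the other 1282 autosomal peaks (92.0%, interval 90.3% to 93.4%) and 92.9% of all autosomal peaks. The thresholded list was itself selected by agreement between these same replicates, so this overlap is not an independent check. Overlap was counted from 1 bp, and stricter overlaps were not computed for the other peaks. None of the 263 lacked a peak in replicate 2, and 6 lacked one in replicate 1. The strongest of the 6 was in psd-1, a phosphatidylserine decarboxylase gene, with a pooled value of 241.1 and a replicate 2 value of 113.9. Next came fkh-7, a forkhead factor gene, with 179.9 pooled and 67.7 in replicate 2, and F16A11.1, with 170.6 pooled and 81.9 in replicate 2. A missing entry means that the replicate's list of 30000 peaks held none there, not that the value was 0.

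The median value was 90.7 in replicate 1 and 73.7 in replicate 2, and replicate 1 was the higher in 196 of the 257 matched peaks. The ratio of replicate 1 to replicate 2 had a median of 1.26 and a range of 0.382 to 4.12. It exceeded 2 in 28 peaks and was under 0.5 in 3. The sum of both replicates' values was close to the pooled value, with a median ratio of 1.00. The farthest to the replicate 1 side was T20B12.3, with 124.6 in replicate 1 and 30.2 in replicate 2, followed by F56A8.3 with 119.5 and 32.3 and C34B4.2 with 102.5 and 31.7. Next in that order was the pqn-41 peak of 133.8, with 111.0 in replicate 1 and 36.6 in replicate 2. At the other end, the aquaporin gene aqp-2 had 30.9 in replicate 1 and 81.0 in replicate 2. ZC123.1 (39.6 and 82.5), the ubiquilin gene ubql-1 (46.1 and 94.3) and C34C12.2 (46.7 and 83.0) leaned the same way. The 6 gene-body peaks with the highest pooled values did not lean so far, with ratios of 0.986 to 1.21. Among strong peaks below them the ratio varied, with 1.69 at the strongest lsy-22 peak, 1.83 at that of larp-1 and 0.963 at that of mbk-2.

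**Figure D2:**
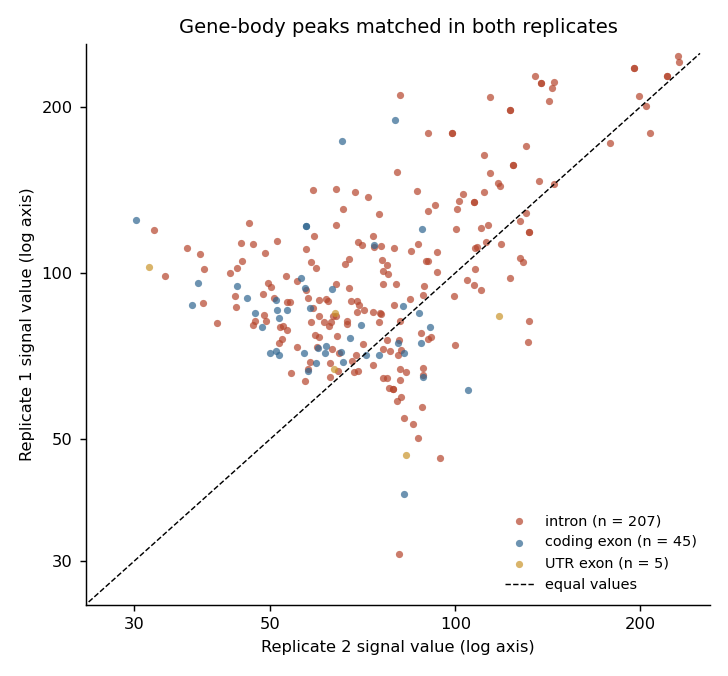
Replicate 1 against replicate 2 signal value (log axes, authors' units) for the 257 gene-body peaks matched in both lists, coloured by intron, coding exon or UTR exon, with a dashed line of equal values. Most points lie above the line, as replicate 1 was higher in 196 of 257, and the strongest peaks lie near it.

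The 15 strongest gene-body peaks were all intronic in the longest-coding host transcript that spans the summit. Those of Y43F8B.2 (431.8) and egl-30 (384.0) lay in an exon of another transcript of the host. The peak in M01F1.8 (gene of 3180 bp) stood first, with a pooled value of 478.5 and values of 247.6 in replicate 1 and 229.9 in replicate 2. The unc-104 peak, in the gene of the kinesin that carries synaptic vesicle precursors, had 470.5 pooled, 241.0 in replicate 1 and 230.9 in replicate 2. In Y43F8B.2 the peak had 431.8 pooled, with 235.3 in replicate 1 and 195.0 in replicate 2, and its summit stood 33 bp downstream of a start of a shorter transcript of that gene. In these 3 genes, the values of each replicate alone were 195.0 to 247.6. The class medians were 90.7 in replicate 1 and 73.7 in replicate 2.

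All 3 peaks of miz-1 lay in the 8501-bp intron 4, the strongest with 427.8 pooled, 227.4 in replicate 1 and 221.3 in replicate 2. The second had 405.9 pooled, 201.1 in replicate 1 and 204.0 in replicate 2. The other summit, 200 bp from the strongest, had 257.9 pooled and shared the replicate peaks of the strongest. Intron 1 of K10C3.4 followed, with 412.2 pooled, 208.9 in replicate 1 and 199.1 in replicate 2. Replicates differed little at these sites. Intron 1 of egl-30, which encodes the Gq alpha subunit, held a peak of 384.0 (179.5 in replicate 1, 207.1 in replicate 2), 72 bp downstream of an internal transcript start. The 5′ end of egl-30 itself had a separate thresholded peak of 354.0.

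Further down the order the values of replicate 2 were the lower. In mdt-26, a Mediator subunit gene, the peak of 365.0 had 222.0 in replicate 1 and 144.4 in replicate 2. It lay in intron 2, only 716 bp from the gene's 5′ end, which had a thresholded peak of its own (277.1). In spop-1, named for the cullin-3 ubiquitin ligase adaptor, the intron 1 peak of 357.6 had 220.6 in replicate 1 and 137.7 in replicate 2. For larp-1, a La-related RNA-binding protein gene, the intron 5 peak of 322.6 had 208.3 in replicate 1 and 113.7 in replicate 2. By contrast, the strongest peak in mbk-2, a DYRK-family kinase gene with a role in the change from oocyte to embryo, had 357.2 pooled with 171.7 in replicate 1 and 178.4 in replicate 2.

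The summits were mostly intronic. Of the 263, 213 lay in introns (81.0%, exact interval 75.7% to 85.5%), 45 in coding exons (17.1%) and 5 in UTR exons (1.90%). The comparison is with the bases open to the rule, that is, the 41.1 Mb of autosomal protein-coding gene body more than 500 bp from the listed gene starts. Of these eligible bases 57.4% were intronic, 37.4% coding and 5.27% UTR. Per Mb of eligible sequence there were 9.03 peaks in introns, 2.93 in coding exons and 2.31 in UTR exons, and the intervals of introns and coding exons did not overlap. Intronic peaks were also stronger, with a median signal of 158.9, against 141.0 in coding exons and 142.2 in UTR exons.

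Coding exons held few of the stronger values. The highest was in dos-3, which encodes a Notch co-ligand, with 272.3 pooled, 189.3 in replicate 1 and 79.8 in replicate 2. Next was hrpa-1, an hnRNP A homolog, with 242.6 pooled, 173.6 in replicate 1 and 65.4 in replicate 2. Both had replicate 1 values more than 2 times those of replicate 2. In the UTR exons the highest was bris-1, with 207.2 pooled, 83.7 in replicate 1 and 117.9 in replicate 2. The other 4 UTR peaks, in C34B4.2, F55C9.11, T01D3.3 and C34C12.2, had pooled values of 130.6 to 144.8.

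First introns held more of the peaks than their length would give. The first intron contained 76 of the 213 intronic summits (35.7%, interval 29.3% to 42.5%), against 17.7% of eligible intron bases, or 18.2 peaks per Mb. Introns 2, 3 and 5 held 9.86%, 8.92% and 7.51% of the intronic summits, against 15.5%, 13.6% and 9.97% of the eligible intron bases. Intron 4 held 14.1% against 11.9% of the bases, and introns 6 and later held 23.9% against 31.3%. The median signal was 168.1 in first introns and 155.9 in later ones, with quartile ranges that overlapped (144.4 to 218.5 in first introns and 139.5 to 197.8 in later ones).

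Intron length went with peak density more widely than intron number did. The intron that held a summit had a median length of 4587 bp (range 44 to 23952), against 1066 bp for introns weighted by their eligible bases. Density was 2.21 peaks per Mb in introns of up to 0.5 kb, 4.14 between 0.5 and 2 kb, 15.5 between 2 and 5 kb and 27.6 above 5 kb. Within introns above 5 kb it was 31.4 per Mb in first introns and 25.2 in later ones, and between 2 and 5 kb it was 18.5 and 14.3 in that order, with overlapping intervals at both lengths. Between 0.5 and 2 kb the 13 first-intron peaks gave 8.74 per Mb (interval 4.71 to 14.6) and the 29 later ones 3.35 (interval 2.29 to 4.66). Introns above 5 kb held 94 of the 213 intronic peaks in 14.4% of the eligible intron bases. The longest, of 23952 bp, was intron 2 of the chemoreceptor gene str-81, with a peak of 156.1 pooled, 72.7 in replicate 1 and 76.3 in replicate 2.

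**Figure D3:**
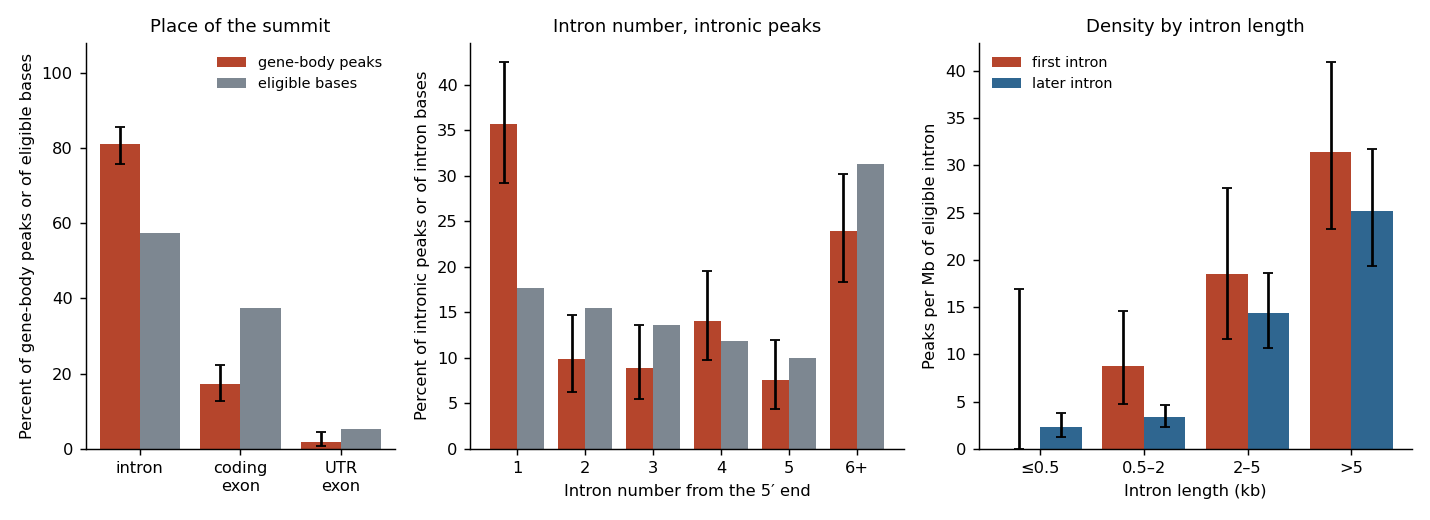
Left, percent of gene-body peaks beside percent of eligible bases in introns, coding exons and UTR exons; middle, the same for intronic peaks by intron number; right, peaks per Mb of eligible intron by intron length in kb, for first and later introns. Error bars are exact 95% intervals of the share of peaks, at the right rescaled to peaks per Mb with the total number of peaks held fixed. Introns hold 81.0% of peaks against 57.4% of bases, and first introns 35.7% against 17.7%. Introns above 5 kb have 31.4 and 25.2 peaks per Mb.

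Hosts were long genes. Counted once per peak, the host had a median length of 12418 bp (range 980 to 58913), and counted once per gene 9994.5 bp. The median was 1964 bp over the 17242 autosomal protein-coding genes and 5612 bp when genes were weighted by their eligible bases. Peak density was 2.77 per Mb in genes of up to 5 kb, 5.40 between 5 and 10 kb, 12.01 between 10 and 20 kb and 13.9 above 20 kb. For introns alone the densities were 3.41, 6.93, 14.3 and 17.1 per Mb, so the order was the same where exons were left out.

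The longest hosts were hmr-1 (58913 bp) and then afd-1 (49607 bp), which encodes afadin. The afd-1 peak, in intron 9, had 132.5 pooled, 67.0 in replicate 1 and 57.6 in replicate 2. The 3 shortest hosts were all cuticle collagen genes, col-140 (980 bp), col-108 (1115 bp) and col-77 (1154 bp), and each had its summit in a coding exon. The values there were 135.1, 172.1 and 138.8 pooled. In replicate 1 they were 87.2, 84.6 and 86.3, and in replicate 2 37.3, 87.1 and 58.01, in the same order.

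Summits were spread along the hosts. The median distance from the host's 5′ end was 4646 bp (range 517 to 56962), the median position was 47.7% of the way along the host, and the median distance to the 3′ end was 5346 bp. By chromosome the counts were 72 on I, 52 on II, 71 on III, 36 on IV and 32 on V. Per Mb of eligible sequence these were 8.34, 7.10, 9.25, 4.39 and 3.45 in the same order, so chromosomes I and III were the densest, with intervals that did not overlap those of IV and V.

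Starts of shorter transcripts lay close to part of the summits. The rule used the outer 5′ end of each gene, so annotated starts of its other transcripts could be inside. Of the 263 summits, 58 (22.1%, interval 17.2% to 27.6%) were within 500 bp of such an internal start of the host, against 8.42% of eligible bases. Within 200 bp there were 30 (11.4% against 3.46% of the bases). The eligible bases are those of all genes, whereas 145 of the 196 hosts had more than 1 annotated start. The share of bases within the hosts alone was not computed. Of the 58, 41 stood upstream of the start and 17 at or downstream of it, with a median of 138 bp upstream. Their median signal was 167.6, against 153.1 for the 205 farther away, and the quartile ranges overlapped. The remaining 205 peaks had no annotated transcript start of the host within that distance.

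Several of the strongest were in this group. In lit-1, the Nemo-like kinase gene of the Wnt pathway, the peak of 362.3 was 223 bp upstream of an internal start, with 216.2 in replicate 1 and 143.7 in replicate 2. In scc-2, the cohesin loader gene, the intron 1 peak of 287.1 was 165 bp upstream of one, with 144.8 in replicate 1 and 144.6 in replicate 2. In unc-108, the Rab2 gene, the distance was 495 bp and the value 282.9, with 146.8 in replicate 1 and 136.9 in replicate 2. For unc-62, a Meis-type homeodomain factor gene, the intron 1 peak of 226.4 was 29 bp upstream, with 134.8 in replicate 1 and 101.4 in replicate 2. In all 4 genes both replicates had the peak.

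The 263 peaks had 196 hosts, and some genes held several. There were 160 hosts with 1 peak, 19 with 2, and 17 with 3 or more, which together held 65 peaks. The most were 6, in lsy-22 and in hmr-1. The peaks of 1 gene are not independent of each other: 24 summits lay within 250 bp of another gene-body summit, and 18 peaks shared their matched replicate peaks with a neighbour. One peak lay in 2 protein-coding genes and was given to the longer.

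In lsy-22, which encodes a Groucho-related corepressor, 5 of the 6 peaks lay in the 11392-bp first intron. Their pooled values were 368.1, 339.4, 203.9, 195.3 and 137.7, and the sixth, in a coding exon, had 153.1. The replicate 1 values in that order were 227.0, 204.7, 142.0, 105.2, 66.3 and, for the exon, 97.7. The replicate 2 values were 134.7, 141.8, 64.0, 89.7, 69.5 and, for the exon, 56.1. The order by strength was the same in the pooled list and replicate 1 within the intron, while replicate 2 put the second first and the third last. The annotated transcript starts of lsy-22 nearest to the 2 strongest were 5607 and 4710 bp away. The nearest 5′ ends of any listed gene were 3293 and 4190 bp away.

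In hmr-1, which encodes the classical cadherin of worm cell junctions, all 6 peaks lay in the 3′ part of the gene, from 36174 to 56962 bp after its 5′ end. The strongest, in the 18310-bp intron 21, had 303.8 pooled, 197.6 in replicate 1 and 122.8 in replicate 2. A second summit 200 bp away had 203.2 pooled and shared those replicate peaks. These summits were 1417 and 1617 bp upstream of the nearest annotated transcript start of hmr-1. The nearest 5′ ends of any listed gene were 1051 and 851 bp away. The others had 200.2, 157.0, 142.7 and 133.7, of which that of 157.0 lay in a coding exon. The pooled list had nothing at the gene starts of hmr-1 and lsy-22, to 500 bp on either side.

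In mbk-2 the peaks of 357.2, 167.1 and 140.4 shared the 6975-bp intron 6, and those of 155.3 and 140.3 shared intron 4. In cdc-25.2, a CDC25-type cell cycle phosphatase gene, 5 peaks of 150.7 to 226.5 lay in first introns of its transcripts, spread from 1885 to 11893 bp after the 5′ end. In lit-1 the 4 values were 362.3, 268.8, 218.4 and 200.9, all above the upper quartile of the class. In zfp-1, the worm AF10-like chromatin gene, they were 297.5, 252.2, 139.8 and 133.7, and the second and last, 216 bp apart, shared 1 pair of replicate peaks. Y111B2A.12 had 251.6, 245.3, 154.4 and 153.3 in 1 intron of 7076 bp, and a thresholded peak of 208.5 at its 5′ end. In pqn-41, which encodes a glutamine-rich protein, all 4 (274.2, 151.2, 133.8 and 131.9) lay in intron 14, of 10372 bp.

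**Figure D4:**
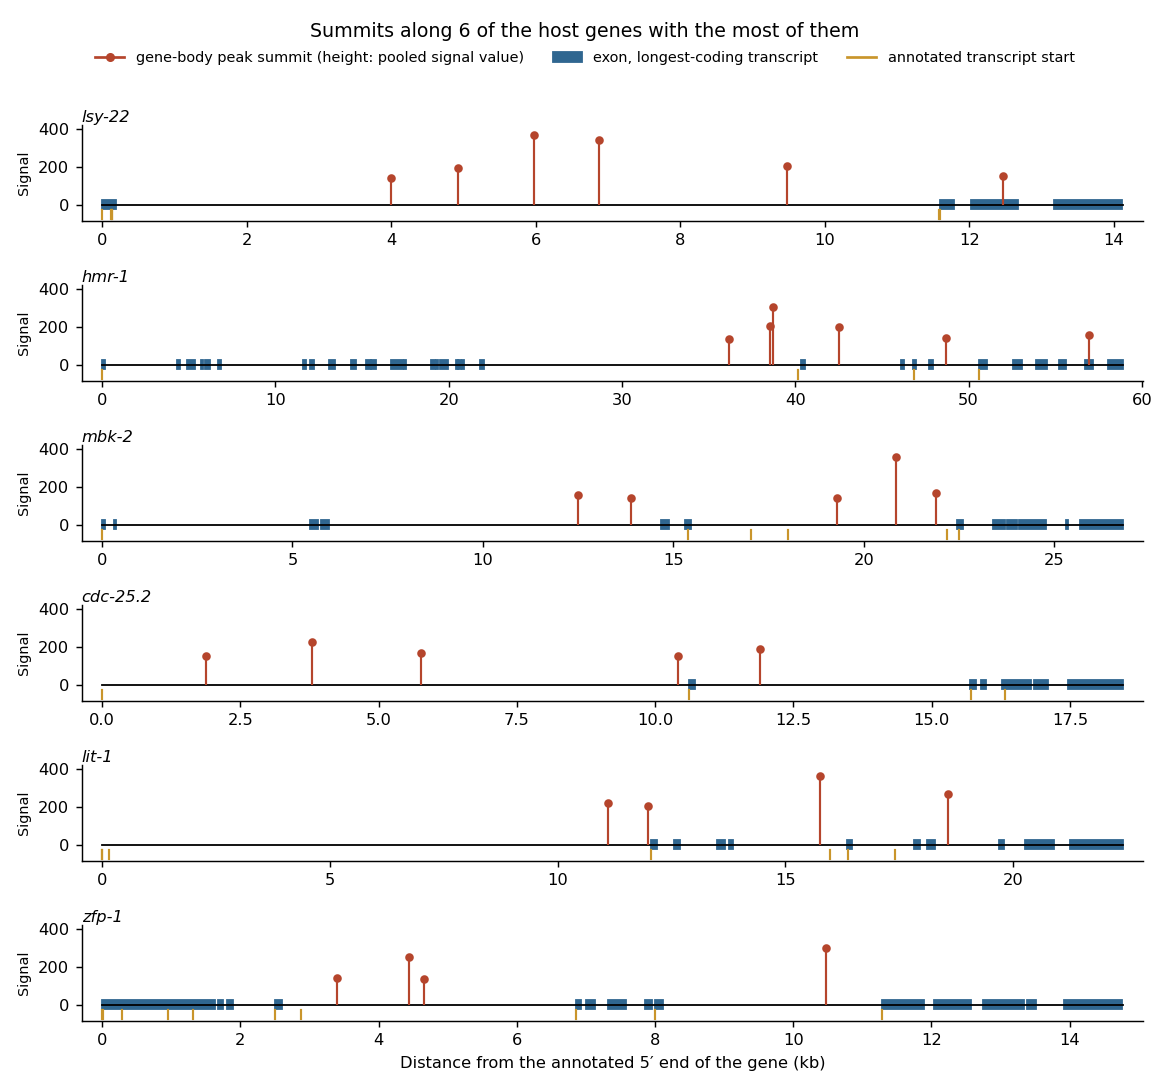
Pooled signal value of each gene-body peak (stem height, authors' units) against distance from the annotated 5′ end in kb for lsy-22, hmr-1, mbk-2, cdc-25.2, lit-1 and zfp-1, with exons of the longest-coding transcript as blocks and annotated transcript starts as ticks below. Most stems stand in long introns; the 6 of hmr-1 begin 36174 bp into the gene.

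Hosts had a thresholded peak at their own start more often than genes in general. Of the 196 hosts, 21 (10.7%, interval 6.76% to 15.9%) had a thresholded summit within 500 bp of their 5′ end, against 3.9% of all autosomal protein-coding genes. In the longer pooled list 91 hosts (46.4%) had one, against 29.9% of all such genes, and the median values there were 80.7 at host starts and 67.7 at the starts of other genes. By length, the thresholded share was 18% in hosts of up to 5 kb against 3.52% of other genes, 12.5% against 6.27% between 5 and 10 kb, and 9.84% against 4.57% between 10 and 20 kb. Above 20 kb it was 0 of 37 hosts and 1 of 134 other genes. The peak at a start was the stronger in T02E1.2, with 840.2 at the start and 258.4 inside, in scpl-3 with 346.9 and 134.2, and in rsr-1, an SR-related splicing protein gene, with 320.3 and 150.4; these 3 were chosen after their values were seen. The other 175 hosts had no thresholded peak within 500 bp of their own 5′ end.

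Hosts were then set against 15 lists of genes. Of the 15275 autosomal protein-coding genes with eligible bases, 196 held a gene-body summit, or 1.28%, and 60 of these were in a list. The highest share was in genes of adhesion, guidance and extracellular matrix, where 11 of 84 were hosts (13.1%, interval 6.72% to 22.2%). These genes were also long, with a median of 9103 bp against 2158 bp over all with eligible bases. Per Mb of eligible sequence they had 16.9 peaks against 6.40 overall. Density per Mb itself rose with host length, to 12.01 between 10 and 20 kb and 13.9 above 20 kb. Of the 16 peaks in these genes, 6 lay in hmr-1. Beside hmr-1, their strongest were cam-1, a ROR-type receptor tyrosine kinase gene, with 237.6 pooled, 138.9 in replicate 1 and 103.1 in replicate 2, and sax-7, an L1-type adhesion gene, with 212.1 pooled, 110.8 in replicate 1 and 107.6 in replicate 2. The others were lin-17, ptp-3, mig-10, mig-38, vab-2, vab-1, cdh-12 and unc-71, at 131 to 188. How much of the share goes with gene length was not tested, and these densities do not separate the 2.

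Signalling genes came next. Of the list of kinases, phosphatases and small GTPase signalling 11 of 184 were hosts (5.98%, interval 3.02% to 10.4%; 14.4 peaks per Mb), led by egl-30, mbk-2 and mpk-1. The list was broader than its name, as egl-30 encodes the Gq alpha subunit. It was also incomplete, as it left out the host lit-1, a kinase gene with a peak of 362.3. Its share, density and order are those of the listed genes only. The peak in mpk-1, the ERK gene, lay in the 8247-bp intron 1 with 222.9 pooled, 152.6 in replicate 1 and 80.5 in replicate 2. Of chromatin and nuclear organisation genes 7 of 140 were hosts (5%; 15.3 per Mb), with zfp-1, scc-2 and nurf-1, a nucleosome remodelling factor gene with a peak of 193.3 (109.2 in replicate 1, 93.4 in replicate 2), the strongest. Of RNA-binding and splicing genes 5 were hosts (4.31% of the list; 18.2 per Mb), with larp-1, hrpa-1 and lin-28, the developmental timing gene, whose peak of 187.3 had 112.1 in replicate 1 and 70.4 in replicate 2. The lower interval bound of these shares was above 1.28% in each, 1.41% for the last.

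In the list of collagen and cuticle genes 6 of 135 were hosts (4.44%; 27.4 peaks per Mb), the highest density of any list, on 0.219 Mb of eligible sequence. The strongest were col-108 at 172.1, dpy-11, a thioredoxin-like gene needed for cuticle shape, at 148.8, and dpy-14 at 139.7. All 6 were below the upper quartile of the class. Transcription factors gave 9 of 422 (2.13%, interval 0.980% to 4.01%; 8.69 per Mb), led by unc-62, fkh-7 and egl-44, a TEAD-type factor gene with 177.0 pooled, 94.7 in replicate 1 and 88.9 in replicate 2. Cyclin, replication and mitosis genes gave 3 (2.59% of the list), namely cdc-25.2, the cyclin D gene cyd-1 (168.2) and the E2F-like gene efl-3 (143.4). The intervals of these last 2 lists included 1.28%. The transcription factor list left out lag-1 (230.8) and zag-1 (139.3), hosts that also encode such factors. Its share, interval and order are those of the listed genes only.

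The other lists had 4 hosts or fewer each. Heat shock and chaperonin genes had 2 of 51 (3.92%), cct-5 (193.6) and dnj-20 (136.4), and cytoskeleton and motor genes 2 of 73 (2.74%), unc-104 and the nuclear anchorage gene anc-1 (214.5). Muscle genes had 1 of 35 (2.86%), the tropomyosin gene lev-11 (132.5), and translation genes 1 of 69 (1.45%), the eIF3 subunit gene egl-45 (141.0). These 4 shares were above 1.28%, and their intervals included it. Chemoreceptor genes had 4 of 1241 (0.322%, interval 0.0879% to 0.823%; 2.49 per Mb), with srt-52 the strongest at 239.5 (106.4 in replicate 1, 127.1 in replicate 2), then srd-70 at 190.0 and str-81. None of 209 ion channel and neurotransmitter receptor genes was a host, which allows a share of up to 1.44%, although these genes had a median length of 4521 bp and 1.11 Mb of eligible sequence. None of 43 ribosomal protein genes (up to 6.98%) or 11 histone genes (up to 27.3%) was one, and these short genes had 0.0122 and 0.0111 Mb of eligible sequence.

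The sequence around the summits was rich in G and C. In the 300 bp centred on a summit, intronic peaks had a median GC content of 48%, against 34% in 78497 windows of that length tiled over eligible introns. Of the 213 intronic peaks, 146 (68.5%) were above 45.3%, the 95th percentile of those windows. In coding exons the median was 50.3% against 39%, and 25 of 45 peaks were above the 95th percentile of 49.7%. Other autosomal peaks had 47% between genes, 49% at other non-coding RNA gene starts, 46.3% at small RNA gene starts and 43.3% at protein-coding gene starts. High GC content was thus shared with the other positions, and its part in the recovery of fragments was not tested.

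GA repeats and the GAGACGCAG element were common, and tRNA promoter letters rare. A run of 5 or more GA units stood in 39 of the 263 windows (14.8%, interval 10.8% to 19.7%), all in introns, against 10.3% of other autosomal peaks and 0.595% of 137101 tiled windows. Among tiled windows with a GC content of 45% to 52% it was 1.195%. The holders had a median signal of 162.5, against 151.9 for the rest. GAGACGCAG, chosen after words in these windows were counted, stood in 44 (16.7%, interval 12.4% to 21.8%), 43 of them in introns, against 13.5% of other autosomal peaks, 0.998% of tiled windows and 2.12% of those in the GC range. Its holders had a median of 174.0 and the rest 151.7. Both were present in 9 peaks and at least 1 of them in 74.

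Neither run of letters was particular to gene bodies. The GA repeat was in 20.3% of the peaks between genes and 15.9% of those at other non-coding RNA gene starts, but in 4.38% at protein-coding gene starts and 4.08% at small RNA gene starts. For GAGACGCAG the shares were 22.9% between genes, 10.8% at other non-coding RNA gene starts, 12.5% at protein-coding gene starts and 4.49% at small RNA gene starts. GA repeats stood also in the strongest hmr-1 peak and in that of unc-108.

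The B box occurred in 1 gene-body window (0.380%), the unc-104 peak, against 33.1% at small RNA gene starts and 0.357% of tiled windows. The A box, the other internal tRNA promoter element, was in 1, srt-52, against 2.42% of other autosomal peaks. Annotated tRNA pseudogenes lay within 500 bp of 2 gene-body summits, of which the unc-104 summit was inside one and the dyf-19 summit (158.9 pooled, 123.0 in replicate 1, 46.1 in replicate 2) was 94 bp from Y43F8C.t3. On the autosomes 4 of 180 tRNA pseudogenes had a thresholded summit within 500 bp, and 126 of the 180 held the B box. A run of 10 T was in 1 gene-body window, T22F3.2, against 3.04% of other autosomal peaks and 10.01% of tiled windows, or 1.70% of those in the GC range.

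Other letters searched were no more frequent than among tiled windows in the GC range, apart from AGATAA, whose interval of 6.25% to 13.7% included the share there. CACGTG, an E box, was in 18 (6.84%) against 6.63% of other autosomal peaks, 5.56% of tiled windows and 10.4% of those in the GC range, and srt-52, acs-13, bris-1 and Y62E10A.13 were its strongest holders. AGATAA, read by zinc finger factors of the ELT family, was in 25 (9.51%) against 10.8%, 15.2% and 7.69% in the same order, with lsy-22, hmr-1, unc-108 and Y111B2A.12 the strongest holders. ATTGTT, the core of SOX-type HMG box sites, was in 47 (17.9%) against 21.4%, 31.3% and 19.0%, with mbk-2, F28E10.1, cdc-25.2 and acs-13 the strongest. The inverted repeats of the kind shown for M01F1.8, with arms of at least 10 bases and a spacer of at most 50, occurred in 14 gene-body windows (5.32%), fewer than the 13.7% of tiled windows, and were not counted by GC range. All these searches covered both strands, and a match is a description of the letters only.

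**Figure D5:**
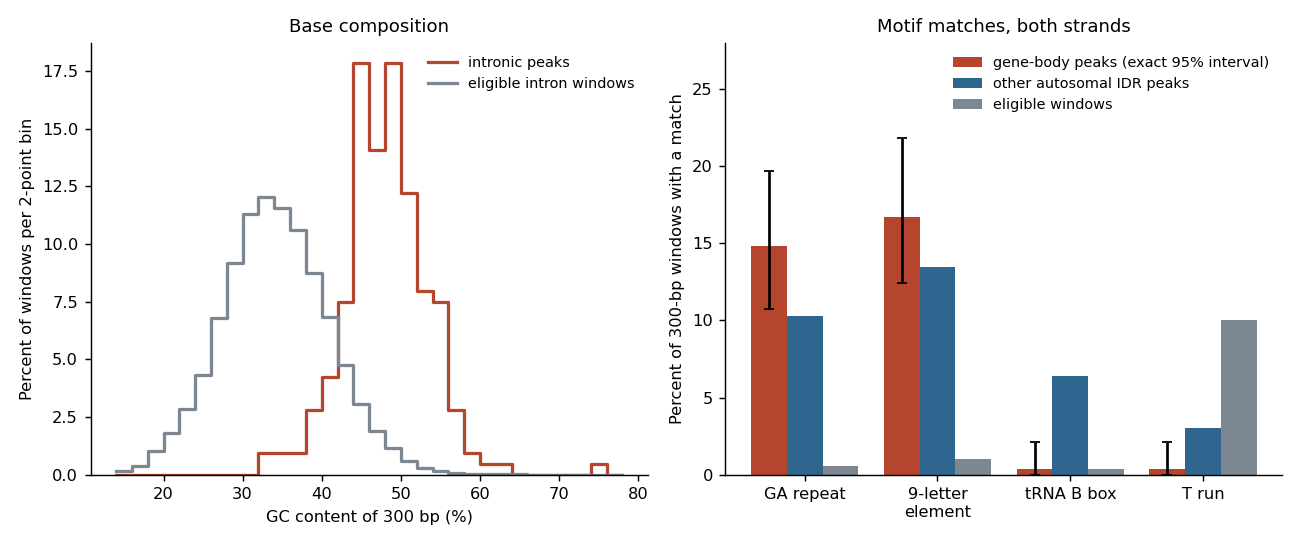
Left, GC content of the 300 bp around intronic summits beside windows tiled over eligible introns (percent of windows per 2-point bin); right, percent of windows with a GA repeat, the 9-letter element, the B box or a T run in gene-body peaks (exact 95% interval), other autosomal peaks and tiled windows. Intronic summits centre on 48% GC against 34%, and GA repeats stand in 14.8% of gene-body windows against 10.3% of other peaks and 0.595% of tiled windows.

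At the edge of the rule, the nearest gene-body summits stood 510 bp (nish-1, 143.7 pooled), 517 bp (T20B12.7, 139.1) and 520 bp (uba-5, 195.1) from a listed gene start. Just short of it were srw-85 at 497 bp (147.8), dab-1 at 487 bp (196.7) and cyc-2.1 at 485 bp (175.4). At the edge of the signal, fdgt-1 (129.967), tfg-1 (129.969) and kin-36 (130.1) were the weakest kept, and the pooled peaks in ppfr-1 (129.6), let-526 (129.5) and Y69A2AR.31 (129.4) were the strongest not on the thresholded list. Of gene types outside the rule, 1 summit was within 500 bp of a piRNA gene's 5′ end, 3 of a pseudogene's and 0 of an antisense RNA gene's. The share of eligible bases that near to these gene types was not computed, so the counts have no comparison.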

How the data were processed

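The authors deposited 4 peak lists on ce11: 1 per replicate and 1 for both pooled, each of 30000 peaks, and the IDR-thresholded list, which equals the 2137 strongest pooled peaks. Per the file headers of the accompanying texts, peaks were called from alignments against a control alignment that both replicates shared. Which aligner and caller were used, in which versions, and at what IDR threshold, is not given in the sources used here. Column 7 is the authors' signal value, whose scaling is not stated, and column 9 is, by the list format, the deposited −log10 q-value; the p-value column holds -1. Depth is unknown, so precision is limited to counts of peaks, and intervals cover counting error only. With 1 group of 2 replicates, no test was made and no p-value of differences is given.

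Summits were placed on Ensembl release 115 models (WBcel235; all peaks lie within its chromosomes) by the host transcript with the longest coding sequence that spans the summit, and introns were numbered from the 5′ end. The host is the longest protein-coding gene with the summit. A replicate value is that of its strongest peak overlapping by at least 1 bp. Intervals are exact 95% binomial (Clopper-Pearson). Those per Mb are intervals of the share of peaks, rescaled with the total number of peaks held fixed, and all treat peaks as independent. A count of 0 allows up to 3 counts of the total. Sequences and tRNA pseudogenes are from RefSeq on the same assembly. Windows of 300 bp were tiled over eligible bases. Python 3.11.15, numpy 2.4.6, pandas 2.3.3, scipy 1.17.1 and pyfaidx 0.9.0.4 were used, and placement and overlap were tested on simulated data.

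Genes were named by rule: hosts of the 15 strongest peaks, up to 8 hosts with 3 or more peaks, up to 3 per list, the 3 longest and 3 shortest, the 4 most extreme replicate ratios each way, the 3 strongest absent from a replicate, 3 on each side of each threshold and up to 4 per motif; others were chosen after their values were seen. One of the longest hosts is not reported here. The class and the lists were chosen with earlier results of these data known. The lists were drawn from gene symbols and are incomplete. GAGACGCAG and the alternative that leaves out summits within 250 bp of a stronger one were chosen after seeing the data. Alternatives varied the distance, gene starts, summit or midpoint, transcript, strength, overlap and replicates. The control alignment was not analysed here.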

Additional observations from a re-analysis of the deposited data

How the results depend on the processing

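Of 98 recomputed values, 68 stayed within the main value's interval (for numbers of peaks, within 1.5 times it), 30 did not and none changed sign. At 200 bp or 1000 bp from a start in place of 500 bp, gene-body peaks were 22.1% or 13.3% of autosomal peaks; at 200 bp the median host was 10392 bp and 33.04% had a transcript start within 500 bp, outer gene starts now included, and at 1000 bp 85.9% were intronic. Excluding summits near any transcript start gave 13.3%; the internal-start share is then 0 by construction and was not computed. Among the 1068 strongest peaks of the thresholded list there were 87 gene-body peaks (12.1% of autosomal peaks), 94.3% of them intronic and 42.7% of these in first introns, with a median host of 13581 bp, a median signal of 226.4, a difference from the other peaks of -7.37, whose interval from the gene-body values of -29.8 to 3.85 includes 0, and 29.9% near an internal start. Requiring that no transcript has an exon at the summit left 75.3% intronic. Each host once gave a median length of 9994.5 bp. The main difference in median signal from the other peaks was -21.4; it was -9.31 with replicate 1 values (median 90.7) and -10.3 with replicate 2 values (median 73.7). Both replicates had a peak for 88.2% at 50% reciprocal overlap and 87.8% with summits within 100 bp. An internal start lay within 200 bp for 11.4%. Any annotated protein-coding transcript start, outer starts of the host or of other genes included, lay within 1000 bp for 39.5% (interval 33.6% to 45.7%). Of the eligible bases 33.8% lay within 1000 bp of one, a share inside that interval. With the 2137 strongest peaks of 1 replicate in place of the thresholded list (without replicate 1 and without replicate 2), there were 233 and 367 gene-body peaks. These made up 15.2% to 22.9% of autosomal peaks, 70.3% to 84.98% were intronic and 34.5% to 35.9% of those lay in first introns. Median signal was 79.2 to 84.1, the difference from other peaks -12.7 to -6.44, the median host 10747 to 11333 bp and the internal-start share 20.98% to 24.0%. They overlapped 162 (61.6%) and 202 (76.8%) of the 263 peaks. No paired analysis was possible because there is only 1 group. Depth is unknown, so weak peaks cannot be told from missing ones.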
